A study of Mus musculus with 6 samples.

Results

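The genes described here are 35 interferon-stimulated genes, the mRNAs that cells raise when type I interferon reaches them. They were chosen by symbol, with no measured value in the rule but with earlier results of these data known. All 35 were found among the 54086 features of the deposited expression table. The study compared whole livers of mice with 2 floxed Mettl3 alleles (Mettl3 flox/flox, n = 3 libraries) and of mice in which Mettl3 was deleted in hepatocytes (HKO, n = 3 libraries), all 8 weeks old and on normal chow. METTL3 is the methyltransferase that places N6-methyladenosine on mRNA, and the comparison asks which liver mRNAs differ once hepatocytes lack it. A floxed allele stays intact until Cre recombinase cuts it, so the flox/flox livers are the controls. The sources used here name neither the Cre driver, the deleted exons, the strain nor the sex of the mice. They also do not state that libraries came from different animals, and p-values therefore reflect the spread between libraries. Other liver cells keep Mettl3 by design. Levels are in FPKM, which divides the fragments of a gene by its length and by a depth term of the library. In the deposited values that term follows a size factor and not the read total of the library, as described below. The division by length allows levels of different genes to be set side by side.

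Type I interferons are secreted when a cell senses viral or misplaced nucleic acid. They bind the receptor chains IFNAR1 and IFNAR2, and the kinases JAK1 and TYK2 then activate a transcription factor complex that holds STAT2 and IRF9 and binds the interferon-stimulated response element (ISRE) in the promoters of target genes. The products cut or bind viral RNA, alter nucleotide pools, hold back virus particles or damp the signal itself. In liver both hepatocytes and the resident macrophages, the Kupffer cells, can express these genes, and RNA of whole liver holds all of these cells together, so more cells of a type and more RNA per cell cannot be told apart.

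Promoter sequences were searched for the letters of elements through which interferon acts. RefSeq promoters (GRCm38.p6, 250 bases before to 50 after a transcription start) were held for 25 of the 35 genes. The ISRE core was searched on both strands as GAAA, any 2 bases and GAAA again (on the other strand TTTC, any 2 bases, TTTC), and it was present for 11 of the 25 genes, against 3.99% of 27025 gene symbols with a promoter in the same table. A gamma-activated site, a second promoter element of interferon-induced genes, was searched as TTCNNNGAA and was present for 7 of the 25 genes, against 9.55% of all symbols. Matches of the 2 motifs may overlap each other. The windows below show promoters of members described further on, before the start and on the gene's strand, with matched letters in capitals. In the first 5 the capitals mark ISRE cores, and in the last 2 a gamma-activated site.
Isg15 (chr4:156200851-156200920, minus strand): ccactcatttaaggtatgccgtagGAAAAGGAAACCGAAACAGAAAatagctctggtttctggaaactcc
Oas1a (chr5:120907526-120907595, minus strand): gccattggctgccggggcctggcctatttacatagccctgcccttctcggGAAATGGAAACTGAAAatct
Oas1g (chr5:120887614-120887683, minus strand): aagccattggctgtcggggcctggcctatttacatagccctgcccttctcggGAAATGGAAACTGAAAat
Ifit1 (chr19:34640764-34640833, plus strand): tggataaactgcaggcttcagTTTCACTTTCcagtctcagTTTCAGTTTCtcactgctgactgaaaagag
Rsad2 (chr12:26456533-26456602, minus strand): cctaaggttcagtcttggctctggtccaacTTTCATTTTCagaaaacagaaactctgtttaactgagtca
Irf1 (chr11:53769893-53769962, plus strand): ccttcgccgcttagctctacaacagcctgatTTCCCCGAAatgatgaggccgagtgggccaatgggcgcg
Ifit2 (chr19:34550444-34550513, plus strand): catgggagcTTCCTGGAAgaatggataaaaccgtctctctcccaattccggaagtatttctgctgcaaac
Isg15 held 3 overlapping cores between 78 and 57 bases before its start, and Oas1a and Oas1g held 2 between 20 and 3 bases before theirs. The paralogs were nearly alike there: 59 of the 60 bases ending with the last core were identical between Oas1a and Oas1g, and 60 of 60 between Ifit3 and Ifit3b. Of the genes that rose in HKO and had a promoter entry, 3 of 7 held an ISRE core, as did 8 of the 18 other members with an entry.

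The libraries held 16529358 to 18556076 reads each, rebuilt from the FPKM values. Mettl3 itself measured 1.88, 2.17 and 1.98 FPKM in the control libraries (replicates 1 to 3, the order kept below) and 2.45, 2.14 and 2.06 FPKM in those labelled HKO. It was thus not lower in the libraries labelled HKO (log2 difference 0.09, SE 0.11, limma adjusted p = 0.582), and since the deleted exons are not known the total over the gene cannot check the labels, on which each direction below rests. The deposited scaling also follows the genotype, with size factors of 0.858 to 0.892 for the controls and of 1.06 to 1.30 for HKO. The median log2 difference of all tested genes was -0.06 as deposited and 0.26 when libraries were scaled by their totals.

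Every interferon-stimulated gene of the 35 that passed the test was higher in the libraries labelled HKO. Of the 35 genes 31 had a mean of at least 1 FPKM and were tested, and 12 of these rose while none fell (limma on log2(FPKM + 1), adjusted over all genes). Among all 11086 tested genes 12.8% passed in either direction, 5.95% as higher and 6.86% as lower. The 12 were Irf1, Isg15, Usp18, Ifit2, Oas1a, Oas2, Oasl1, Oasl2, Rtp4, Rsad2, Ifi27l2a and Ifi27l2b. The tested members had a median log2 difference of 0.59, and 27 of 31 were above 0, against 43.6% of all tested genes. Of the 12, Ifit2, Oas2 and Oasl2 passed the filter on low values through the HKO libraries, since their flox/flox means lay under 1 FPKM. With the filter lowered to 0.1 FPKM all 35 were tested and 13 rose, with Mx1 added, against 4.24% of 17606 genes. Of the 19 tested members with a mean of 1 to 10 FPKM 8 rose, while of all genes in that range 7.18% rose and 3.77% fell.

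**Figure D1:**
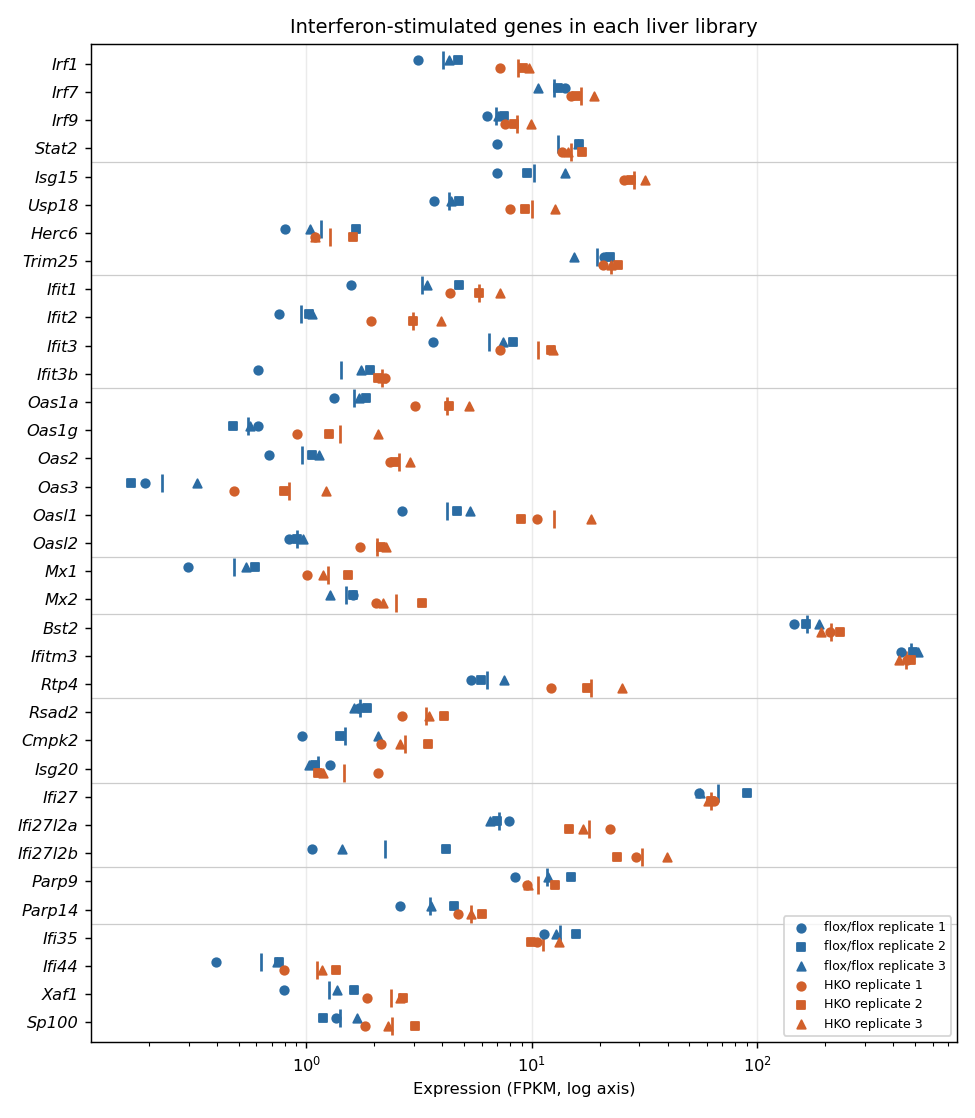
Expression of the 35 genes in FPKM (log axis) in each of the 6 liver libraries, with flox/flox in blue and HKO in orange, circles, squares and triangles for replicates 1, 2 and 3, and a vertical tick at each group mean; grey lines part the roles in which the genes are described. In 25 genes every HKO library lies above every flox/flox library.

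In 25 of the 35 genes the 3 HKO values all exceeded the 3 flox/flox values, and in none did they all lie below. Over the 17606 genes with a mean of at least 0.1 FPKM, a filter that all 35 genes pass, HKO lay above flox/flox in 18.8% and below in 17.9%. Of the 31 tested members 21 lay above, against 16.8% of all tested genes, of which 24.7% lay below. With library totals 31 of the 35 genes had all HKO values above, but so did 38.5% of the 17606 genes. Flox/flox replicate 1 was the lowest control library for 26 of the 35 genes, and for 39.1% of the 17606 genes. The highest HKO library was replicate 3 for 17 members, replicate 2 for 14 and replicate 1 for 4, against 34.2%, 33.3% and 32.5% of the 17606 genes.

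The calls depended on single libraries, as did those of all genes. Without flox/flox replicate 1, 9 of the 12 genes still passed (6.48% of all genes were then higher), and without flox/flox replicate 2, 5 did (1.85%). Without flox/flox replicate 3 only Isg15 passed (0.153%). Without HKO replicate 1 none did in limma (0.334%), while 21 members and 11.4% of all genes were then higher at an unadjusted p under 0.05, and no member was lower. At that unadjusted limma p the other left-out fits had 12 to 18 members higher, and the main fit had 18. Without HKO replicate 2 the 2 genes Ifi27l2a and Ifi27l2b passed (0.586%), and without HKO replicate 3 Usp18 did as well (2.1%). None of the 12 reached an adjusted p above 0.095 in any of the 18 alternatives in which it was tested, and no member fell in any of them.

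**Figure D2:**
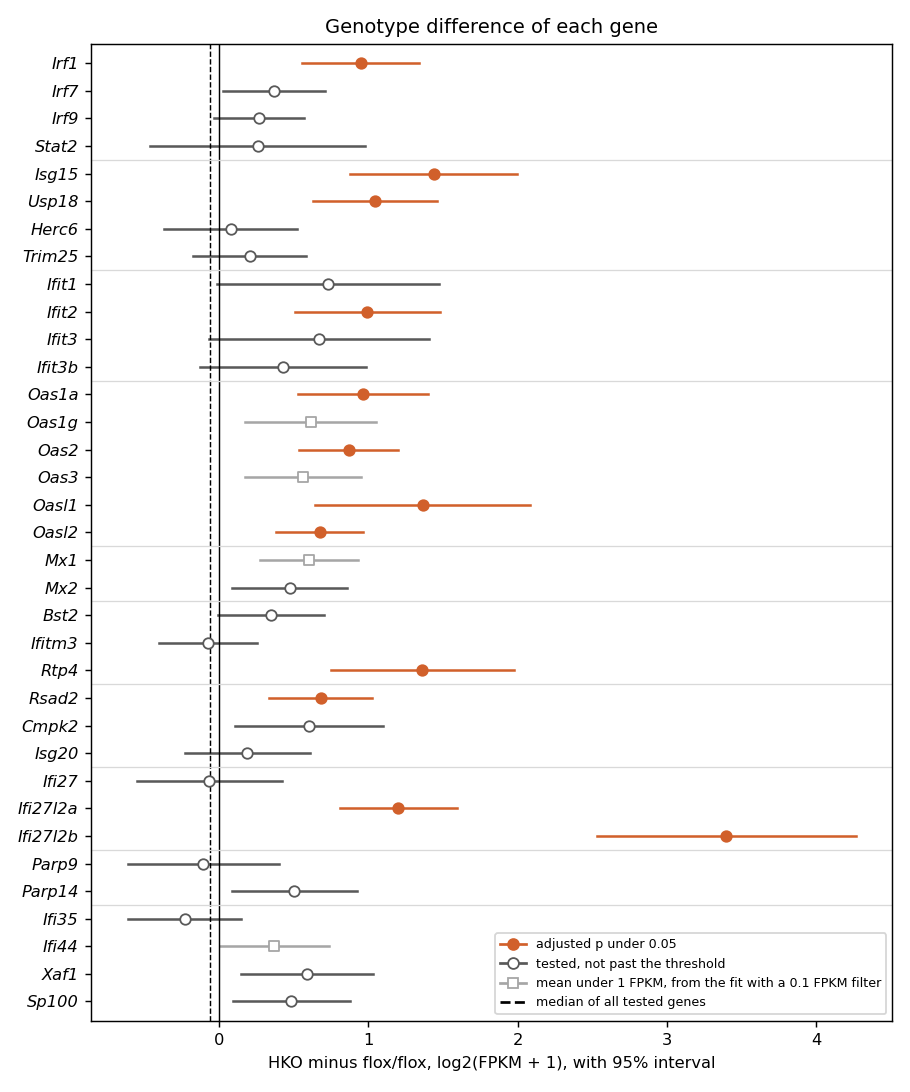
Difference of each gene between HKO and flox/flox on the log2(FPKM + 1) scale with its 95% interval; filled orange points passed the threshold, open circles did not, and open squares are the 4 genes under the 1 FPKM filter, from the fit with a 0.1 FPKM filter. The 12 filled points run from 0.67 for Oasl2 to 3.40 for Ifi27l2b, and the dashed line is the median of all tested genes at -0.06.

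Among the transcription factors only Irf1 rose. Irf1, an activator that both interferon types and inflammatory cytokines induce (chromosome 11, 53770014 to 53778374, GRCm38.p6), had 3.12, 4.70 and 4.28 FPKM in flox/flox against 7.24, 9.09 and 9.71 FPKM in HKO. The groups did not overlap, and the means differed 2.15-fold (log2 difference 0.95, SE 0.16, limma adjusted p = 0.0227). Irf7, the factor that amplifies interferon-alpha gene expression, stood at 13.99, 13.04 and 10.7 FPKM in flox/flox and at 14.9, 15.7 and 18.9 FPKM in HKO. The HKO values lay above the controls, but by less than the threshold asks (log2 difference 0.37, 95% interval 0.03 to 0.71, adjusted p = 0.126).

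Neither Irf9 nor Stat2, of the complex that reads the ISRE, passed the threshold. Irf9, its DNA-binding part, stood at 6.32, 7.49 and 7.05 FPKM in flox/flox and at 7.59, 8.36 and 9.89 FPKM in HKO (log2 difference 0.27, 95% interval -0.03 to 0.57, adjusted p = 0.185). Stat2 stood at 6.99, 16.1 and 16.0 FPKM in flox/flox and at 13.6, 16.7 and 14.5 FPKM in HKO, so that the groups overlapped and flox/flox replicate 1 was the low value. Its difference was 0.26 with that library and -0.11 without it. With library totals Irf7 and Irf9 passed as well (adjusted p = 0.0227 and adjusted p = 0.0435), and Stat2 did not.

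In the ISG15 system the modifier and its protease rose, while the ligases did not pass. Isg15 encodes a ubiquitin-like protein that is attached to other proteins (chromosome 4, 156199424 to 156200818), and its promoter is the one shown with 3 cores. Its level was 6.99, 9.48 and 14.1 FPKM in flox/flox and at 25.6, 27.7 and 31.7 FPKM in HKO. The groups were far apart, with a 2.78-fold difference of the means (log2 difference 1.44, SE 0.23, limma adjusted p = 0.0209). Usp18 encodes the protease that removes ISG15 and also binds IFNAR2 to damp signalling (chromosome 6, 121245906 to 121270917). Its level was 3.66, 4.76 and 4.38 FPKM in flox/flox and at 8.04, 9.33 and 12.6 FPKM in HKO, 2.34-fold higher (log2 difference 1.05, adjusted p = 0.0212).

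Herc6, the main ISG15 ligase of the mouse, stood at 0.802, 1.65 and 1.03 FPKM in flox/flox and at 1.09, 1.62 and 1.09 FPKM in HKO (adjusted p = 0.802). Trim25, a ubiquitin ligase that acts on the RNA sensor RIG-I, was the most abundant of the 4. Its level was 20.9, 22.3 and 15.4 FPKM in flox/flox and at 20.8, 24.1 and 22.5 FPKM in HKO (log2 difference 0.21, adjusted p = 0.401), and it passed with library totals (0.59, adjusted p = 0.0424). Both genes had overlapping groups.

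The 4 IFIT genes, whose products bind foreign RNA and block its translation, lie side by side on chromosome 19, and only Ifit2 rose. Ifit2 (34550694 to 34576419) stood at 0.759, 1.03 and 1.05 FPKM in flox/flox and at 1.93, 2.96 and 3.97 FPKM in HKO. This 3.12-fold difference of the means rested on 44 to 348 reads per library (log2 difference 0.99, SE 0.20, limma adjusted p = 0.0320). Ifit3, the most abundant of the family, stood at 3.65, 8.21 and 7.42 FPKM in flox/flox and at 7.26, 12.2 and 12.4 FPKM in HKO, with overlap (log2 difference 0.67, 95% interval -0.07 to 1.41, adjusted p = 0.180). Ifit1 also overlapped, at 1.58, 4.76 and 3.44 FPKM in flox/flox and 4.32, 5.86 and 7.24 FPKM in HKO (95% interval -0.01 to 1.47, adjusted p = 0.152). Ifit3b stood at 0.609 to 1.92 FPKM in flox/flox and at 2.08 to 2.22 FPKM in HKO (adjusted p = 0.241). Ifit3 and Ifit3b are close copies, and the split of reads between them is uncertain.

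Among the 6 oligoadenylate synthetase family genes chosen here 4 rose and 2 lay under the filter. The enzymatically active members of the family, which not all are, make short oligoadenylates when they bind double-stranded RNA, and these activate RNase L. All 6 genes had HKO values above every control value, as did 18.8% of genes with a mean of at least 0.1 FPKM. Other Oas1 genes, outside these 6, were less uniform. Oas1b had HKO values above the controls but did not pass (log2 difference 0.40, limma adjusted p = 0.158). Oas1c and Oas1h overlapped between the groups, and Oas1d, Oas1e and Oas1f stood at 0 FPKM in every library. Among the 6 genes, the 4 that rose were Oasl1, Oas1a, Oas2 and Oasl2, of which Oas2 and Oasl2 reached the filter only through their HKO libraries. Oasl1, which in the mouse limits translation of Irf7 mRNA (chromosome 5, 114923240 to 114937915), was the most abundant, at 2.65, 4.67 and 5.29 FPKM in flox/flox and at 10.6, 8.93 and 18.3 FPKM in HKO. HKO replicate 3 stood above the other HKO libraries, and the log2 difference was 1.36 (SE 0.30, limma adjusted p = 0.0369).

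Its neighbour Oasl2 stood at 0.839, 0.910 and 0.969 FPKM in flox/flox and at 1.74, 2.15 and 2.26 FPKM in HKO (2.26-fold, adjusted p = 0.0246). Oas1a stood at 1.33, 1.83 and 1.71 FPKM in flox/flox and at 3.02, 4.30 and 5.25 FPKM in HKO (2.58-fold, adjusted p = 0.0270). Oas2 stood at 0.685, 1.05 and 1.14 FPKM in flox/flox and at 2.35, 2.47 and 2.87 FPKM in HKO (2.67-fold, adjusted p = 0.0201). The groups of these 3 low transcripts did not overlap. Oas1g and Oas3 lay under the filter. Oas1g stood at 0.473 to 0.608 FPKM in flox/flox and 0.905 to 2.07 FPKM in HKO, and Oas3 at 0.166 to 0.325 FPKM and 0.475 to 1.22 FPKM. With the filter at 0.1 FPKM both missed the threshold (adjusted p = 0.0854 for Oas1g and adjusted p = 0.0804 for Oas3). Oas1a and Oas1g share much sequence, so their single values are uncertain.

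**Figure D3:**
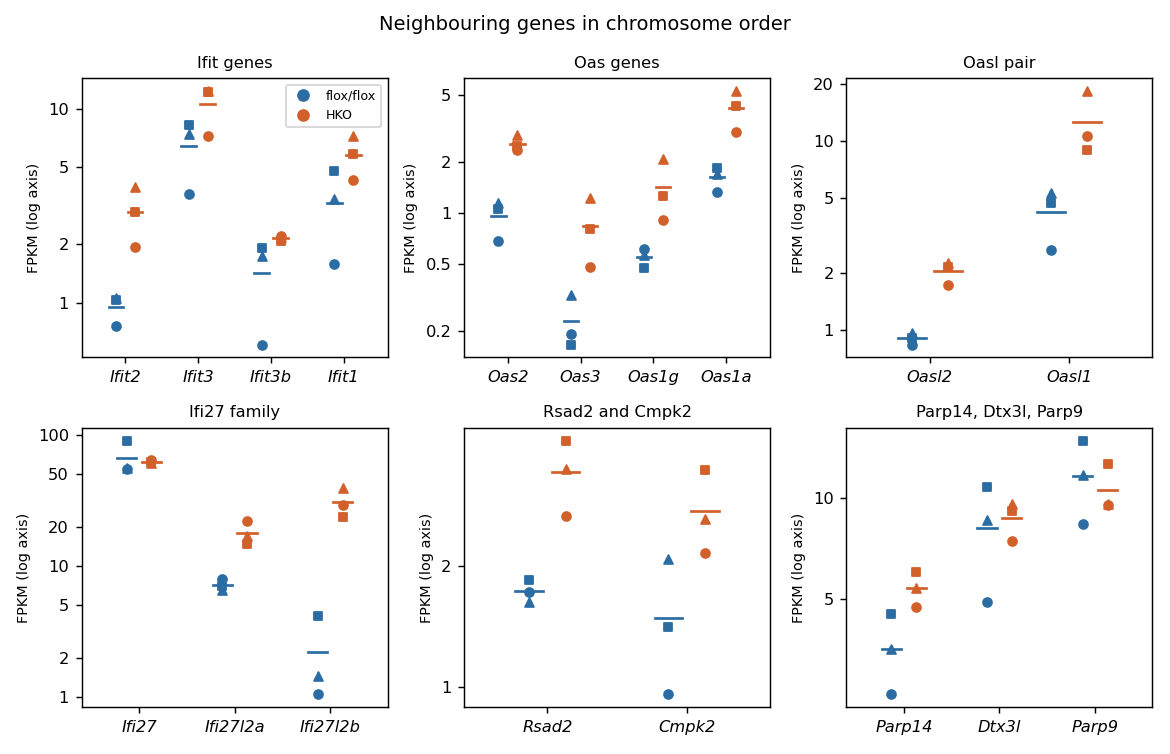
FPKM (log axis) of genes that lie near each other, in chromosome order within each panel. Flox/flox is in blue and HKO in orange, with circles, squares and triangles for replicates 1, 2 and 3 and bars at the group means. Oas2, Oas3, Oas1g and Oas1a parted, whereas Ifi27 overlapped beside Ifi27l2a and Ifi27l2b, which did not. Other Oas1 genes that lie between Oas3 and Oas1g are not drawn.

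The IFI27 family, small hydrophobic membrane proteins, held both the largest rise of the 35 and a gene that did not pass. Ifi27l2b (chromosome 12, 103450898 to 103457223) stood at 1.05, 4.17 and 1.44 FPKM in flox/flox and at 29.1, 23.8 and 39.7 FPKM in HKO. The groups were far apart, and the means differed 13.9-fold (log2 difference 3.40, SE 0.36, limma adjusted p = 0.0132). Ifi27l2a (103442167 to 103443680) stood at 7.90, 7.03 and 6.53 FPKM in flox/flox and at 22.2, 14.7 and 16.9 FPKM in HKO (2.51-fold, adjusted p = 0.0165). Ifi27 (103434211 to 103440239) was the most abundant in flox/flox, at 55.2, 90.0 and 56.0 FPKM, and stood at 64.4, 62.3 and 60.6 FPKM in HKO. Its difference was -0.06 (95% interval -0.55 to 0.42, adjusted p = 0.855) and turned positive with each of the 4 other scalings, without passing. In flox/flox livers Ifi27l2b was thus the least abundant of the 3 genes, and in HKO livers it stood above Ifi27l2a in every library. Reads shared among these paralogs may be split unevenly, since the sources used here do not say how shared reads were counted.

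Of the genes for proteins that act on viral entry, release or trafficking, Rtp4 rose, and the abundant Bst2 and Ifitm3 did not pass. Rtp4, an interferon-induced receptor transporter protein (chromosome 16, 23520291 to 23614222), stood at 5.37, 5.96 and 7.55 FPKM in flox/flox and at 12.2, 17.6 and 25.2 FPKM in HKO (2.91-fold, log2 difference 1.36, limma adjusted p = 0.0265). The HKO libraries spread widely but all exceeded the controls. Bst2, which tethers virus particles to the cell surface, stood at 146, 165 and 187 FPKM in flox/flox and at 210, 234 and 192 FPKM in HKO. The gap was small (log2 difference 0.35, adjusted p = 0.155), and Bst2 passed under quantile normalization (adjusted p = 0.0328) and with library totals (adjusted p = 0.0238). Ifitm3, which blocks fusion of viruses with endosomes, was the most abundant of the 35 genes. Its level was 435, 493 and 518 FPKM in flox/flox and at 464, 482 and 425 FPKM in HKO. The groups overlapped (log2 difference -0.07, 95% interval -0.40 to 0.26, adjusted p = 0.743), and the sign turned to 0.33 with library totals and 0.57 under quantile normalization.

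Rsad2 and Cmpk2, neighbours on chromosome 12 that point away from each other, encode viperin, which turns CTP into a chain terminator for viral polymerases, and a mitochondrial nucleotide kinase. Rsad2 (26442746 to 26456452) stood at 1.72, 1.85 and 1.62 FPKM in flox/flox and at 2.66, 4.08 and 3.48 FPKM in HKO. It rose 1.97-fold (log2 difference 0.68, limma adjusted p = 0.0335) but missed the threshold under quantile normalization (adjusted p = 0.0530). Cmpk2 stood at 0.960, 1.41 and 2.08 FPKM in flox/flox and at 2.15, 3.46 and 2.61 FPKM in HKO (log2 difference 0.60, adjusted p = 0.0984). Both genes had groups that did not overlap. Isg20, an RNA exonuclease, stood at 1.02 to 1.27 FPKM in flox/flox and 1.12 to 2.08 FPKM in HKO (adjusted p = 0.485).

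Mx1 and Mx2 encode GTPases that trap viral nucleocapsids, and the table lists Mx2 as a polymorphic pseudogene. Mx1 stood at 0.297, 0.590 and 0.541 FPKM in flox/flox and at 1.01, 1.53 and 1.18 FPKM in HKO, from 16 to 102 reads per library. It lay under the main filter and narrowly passed with the filter at 0.1 FPKM (log2 difference 0.60, limma adjusted p = 0.0496). Mx2 stood at 1.61, 1.60 and 1.27 FPKM in flox/flox and at 2.03, 3.26 and 2.20 FPKM in HKO (log2 difference 0.47, adjusted p = 0.0945).

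None of the remaining members passed. Parp14, a mono-ADP-ribosyltransferase, Xaf1, which opposes the apoptosis inhibitor XIAP, and Sp100, a nuclear body protein, had HKO values above all controls, with log2 differences of 0.50, 0.59 and 0.48 and adjusted p of 0.0981, 0.0789 and 0.0948. Parp14 ranged from 2.59 to 4.49 FPKM in flox/flox and from 4.72 to 6.03 FPKM in HKO, Xaf1 from 0.794 to 1.63 and from 1.85 to 2.69 FPKM, and Sp100 from 1.19 to 1.68 and from 1.83 to 3.04 FPKM. Each of these passed with library totals. Ifi44, at 0.398 to 0.755 FPKM in flox/flox and 0.793 to 1.36 FPKM in HKO, lay under the filter.

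Parp9 and Ifi35 overlapped between the groups. Parp9, which works with the ubiquitin ligase DTX3L, was the most abundant of the PARP pair, at 8.41, 14.9 and 11.8 FPKM in flox/flox and at 9.56, 12.7 and 9.64 FPKM in HKO (log2 difference -0.10, adjusted p = 0.764). Its partner gene Dtx3l, which shares 458 exon bases with it on the opposite strand, stood at 4.91, 10.9 and 8.62 FPKM in flox/flox and at 7.47, 9.19 and 9.59 FPKM in HKO (adjusted p = 0.725). Ifi35, a binding partner of NMI, stood at 11.4, 15.8 and 12.9 FPKM in flox/flox and at 10.5, 9.93 and 13.1 FPKM in HKO (log2 difference -0.23, adjusted p = 0.348). The signs of Parp9 and Ifi35 turned positive with library totals, at 0.26 and 0.14.

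The scaling moved members and background together. The 12 genes passed with the deposited scaling, with median-of-ratios scaling over tested genes (6.77% of all genes were then higher), with library totals (19.2%) and with a common sum (21.3%), and 11 of them did under quantile normalization (5.86%). Library totals and the common sum each added the same 9 members, for 21 of 31. The same 12 passed with a pseudocount of 0.1 (5.64%), without an intensity trend (5.82%), with voom on rebuilt reads (6.53%) and among protein-coding genes alone (8.08%). With a filter of 5 FPKM 7 of 17 members rose (4.6%), and with every gene above 0 tested 3 did, Isg15, Ifi27l2a and Ifi27l2b (1.14%). With the replicate number as a block 6 rose (0.974%), although the numbers did not pair the libraries. The median difference of the tested members was 0.59 as deposited and 0.83 with library totals, against -0.06 and 0.26 for all tested genes.

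**Figure D4:**
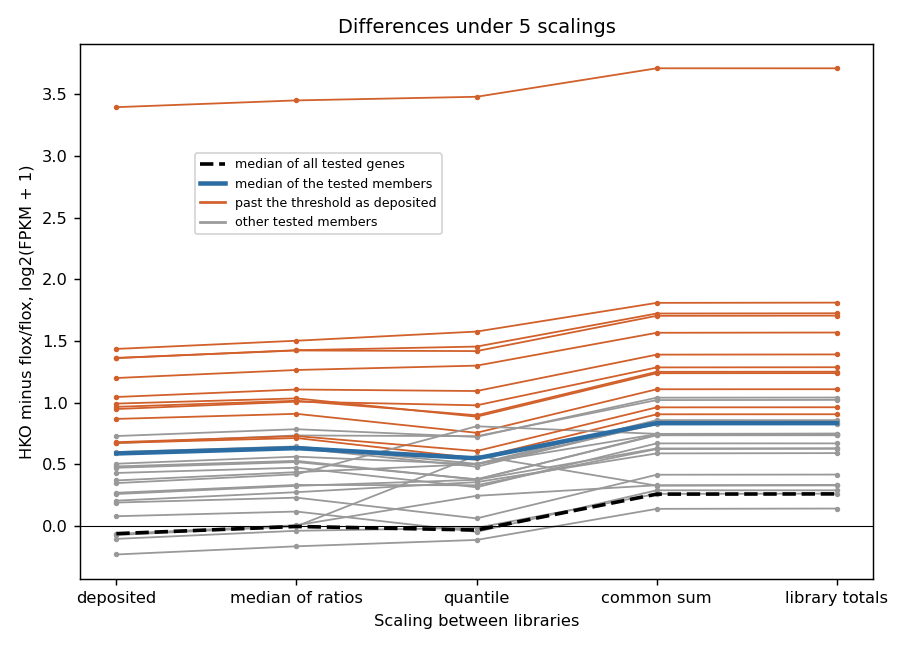
Log2 difference between HKO and flox/flox of the 31 tested members under 5 scalings between libraries, with members past the threshold as deposited in orange, the others in grey, the median of the members in blue and the median of all tested genes as a dashed black line. Members and background move up together with a common sum and with library totals, where the medians stand at 0.83 and 0.26.

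Upstream of these genes, interferon mRNA was at the limit of detection. Of 21 listed interferon ligand genes 18 had no read in any library, which allows up to 3 reads per library, or 0.162 to 0.182 CPM. Ifnb1 had 2 reads in HKO replicate 3 and none elsewhere. Ifng had 2 reads in HKO replicate 2, 3 in HKO replicate 3 and none in flox/flox. Ifnk had 11 reads over the 6 libraries. A difference in ligand mRNA was therefore not detectable at this depth.

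Among 6 receptor chains 5 were tested and 2 rose, where 5.95% of all tested genes rose. Ifngr1, a chain of the interferon-gamma receptor, stood at 8.56, 5.40 and 6.99 FPKM in flox/flox and at 16.1, 15.3 and 13.1 FPKM in HKO (SE of the log2 difference 0.17, limma adjusted p = 0.0215). Il10rb, shared by the interferon-lambda and interleukin-10 receptors, rose from 1.11 ± 0.21 to 2.35 ± 0.21 FPKM (SD, n = 3, limma adjusted p = 0.0273). The type I receptor genes did not pass as deposited: Ifnar1 differed by 0.39 (adjusted p = 0.112) and Ifnar2 by -0.17 (adjusted p = 0.613). Every HKO value of Ifnar1 lay above the controls, and it passed with library totals (0.75, limma adjusted p = 0.0353), where 19.2% of all tested genes were higher. Ifnar2 turned to 0.21 with library totals without passing.

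None of the 7 kinase and STAT genes passed as deposited. With library totals 3 were higher, as were 19.2% of all tested genes. Jak1, the most abundant, stood at 17.7, 17.6 and 19.95 FPKM in flox/flox and at 20.4, 21.3 and 20.4 FPKM in HKO (log2 difference 0.16, limma adjusted p = 0.311). Of the 8 tested negative regulators 2 rose, where 5.95% of all tested genes rose. These were Usp18 and the phosphatase gene Ptpn6, the latter from 6.26 ± 0.176 to 10.7 ± 0.372 FPKM (SD, n = 3, limma adjusted p = 0.0165). Ptpn6 encodes SHP-1, a phosphatase known mainly from blood cells. Of the 8 tested interferon regulatory factors Irf1 and Irf8 rose. Irf8, a factor of myeloid cells, went from 1.30 ± 0.284 to 2.49 ± 0.439 FPKM (SD, n = 3, limma adjusted p = 0.0488). It missed the threshold under quantile normalization (adjusted p = 0.0780) and with the filter at 0.1 FPKM (adjusted p = 0.0605). In the ISG15 list the 2 that rose of 6 were Isg15 and Usp18.

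Sensors of double-stranded RNA and cytosolic DNA held 16 tested genes, of which 3 rose and none fell, where 5.95% of all tested genes rose. These were Zbp1, a sensor of Z-form nucleic acid, with a log2 difference of 0.94, Tmem173, the STING adaptor, with 0.76, and the endosomal RNA receptor gene Tlr7 with 0.74, with adjusted p of 0.0246 to 0.0317. Other interferon-induced genes outside the 35 included 18 that rose and none that fell of 55 tested. The largest were Cxcl10, a T cell chemokine, from 0.655 ± 0.0839 to 4.64 ± 1.88 FPKM (SD, n = 3, log2 difference 1.72, limma adjusted p = 0.0168), and the chemokine gene Ccl5, with a log2 difference of 1.67 (adjusted p = 0.0349). Ms4a6d, a myeloid membrane protein, differed by 1.27 (adjusted p = 0.0283) and Ly6e, a membrane protein that limits coronavirus entry, by 1.19 (adjusted p = 0.0137). Tmem173, Tlr7, Cxcl10, Ccl5 and Ms4a6d reached the filter only through their HKO libraries, since their flox/flox means lay under 1 FPKM. Of the 18, so did Epsti1, Mnda, Phf11b, Slfn5 and Slfn9.

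Genes induced mainly by interferon gamma held 7 that rose and none that fell of 16 tested. Ubd, a ubiquitin-like modifier, differed by 2.93 (limma adjusted p = 0.0147), Cxcl9, another T cell chemokine, by 1.36 (adjusted p = 0.0430, and 0.0551 with the filter at 0.1 FPKM), and the guanylate-binding protein genes Gbp2 and Gbp8 by 1.18 and 1.11. Ubd and Gbp8 had flox/flox means under 1 FPKM and reached the filter only through HKO. Over all pathway lists 31 of 99 tested genes other than the 35 rose and none fell, where 5.95% of all tested genes rose and 6.86% fell. The 31 include the genes of these lists that reached the filter only through HKO, so this count rests partly on the filter. With the filter at 0.1 FPKM 27 of 116 rose and none fell, against 4.24% of 17606 genes that rose. At the main filter the count was 55 with library totals and 56 with a common sum, scalings under which 19.2% and 21.3% of all tested genes rose. Some genes stand in several lists, and the lists, like the 35 genes, were drawn up with earlier results of these data known.

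**Figure D5:**
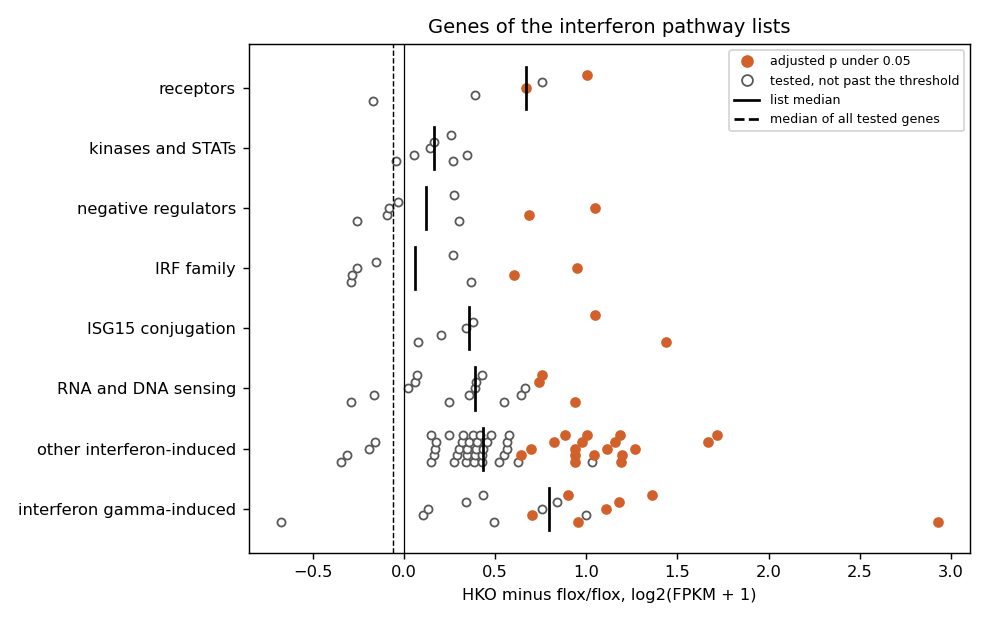
Log2 difference between HKO and flox/flox of each tested gene in 8 lists of the interferon pathway, with filled orange points past the threshold, open points not past it, a black bar at each list's median and the median of all tested genes as a dashed line. None of the kinase and STAT genes is filled, while the interferon-induced lists hold 18 and 7 filled points; vertical offsets within a list carry no meaning.

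Markers of other liver cells moved with the genotype as well. All 11 Kupffer cell markers had HKO values above every control value, against 16.8% of tested genes, and their summed level was 86.5 to 334 FPKM in flox/flox and 425 to 562 FPKM in HKO libraries, with 2 of the 11 past the threshold as deposited (Marco and Folr2) and all 11 with library totals, where 5.95% and 19.2% of all tested genes were higher. Of 11 markers of recruited macrophages and monocytes 8 lay above the controls in every HKO library, against 18.8% of genes with a mean of at least 0.1 FPKM. The list summed to 47.3 to 90.5 FPKM in flox/flox and 135 to 158 FPKM in HKO, nearly all of it Lyz2, Spp1 and Cd9. These were the only 3 tested, and Cd9 was the 1 that passed. Spp1 also stands in the cholangiocyte list. The neutrophil list summed to 1.25 to 1.90 FPKM in flox/flox and 5.66 to 11.6 FPKM in HKO, with Ly6g at 0 in all libraries. Its 3 tested genes, S100a8, S100a9 and Csf3r, all passed the threshold. Each of them, like Folr2, reached the filter only through HKO, with a flox/flox mean under 1 FPKM. The part of the cells of these lists in the differences of interferon-stimulated genes was not tested.

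The Kupffer cell sum was 334, 86.5 and 195 FPKM in flox/flox replicates 1, 2 and 3, and 425, 562 and 526 FPKM in HKO. Among the 35 genes, flox/flox replicate 1 was the lowest control library for 26, against 39.1% of genes with a mean of at least 0.1 FPKM. Single genes differed, as Isg15 was lowest and Ifi27l2a highest in replicate 1 of each group. The relation of these genes to the Kupffer cell sum within groups of 3 libraries was not tested.

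Markers of plasmacytoid dendritic cells, known as strong producers of type I interferon, summed to 0.690 to 0.838 FPKM in flox/flox and 1.32 to 2.96 FPKM in HKO. None of the 6 reached the filter, and Cox6a2 alone gave 1.71 of the 2.96 FPKM in HKO replicate 3. Their defining gene Siglech stood at 0.124 ± 0.00968 and 0.182 ± 0.0557 FPKM (SD, n = 3), with overlapping groups. Summed T cell markers were 0.813 to 1.71 FPKM in flox/flox and 2.38 to 7.30 FPKM in HKO, and summed NK cell markers 0.204 to 1.25 FPKM and 1.63 to 7.63 FPKM. None of the few tested T, NK, B or conventional dendritic cell markers passed, nor did any of the 8 sinusoidal endothelial markers. Of the 7 stellate cell markers 3 rose, where 5.95% of all tested genes rose. Of 2 tested cholangiocyte markers Sox9 did, which reached the filter only through HKO. None of the 6 hepatocyte markers passed, but 5 of them lay below every control value in all HKO libraries, against 24.7% of tested genes, and their median log2 difference was -0.78. Their sum was 43976 to 70462 FPKM in flox/flox and 19762 to 40330 FPKM in HKO, most of it Alb.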

How the data were processed

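Poly(A)-selected RNA of 3 flox/flox and 3 HKO livers was sequenced as paired-end reads. Alignment to GRCm38.p6 used HISAT2 2.0.5 and counting used featureCounts 1.5.0-p3, per the series text; the submitters' processing notes of the authors also name DESeq2 1.16.1. The sources used here do not give the strand setting or how shared reads were counted. The authors deposited FPKM per gene. Multiplied by gene length, 100% of the values were whole multiples of 1 step per library within 0.01 read, which gave the rebuilt reads. Their depth term equals the median-of-ratios size factor times the geometric mean of library totals. No replicate pair agreed within sampling noise.

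Genotype was tested with limma 3.58.1 (R 4.3.3) on log2(FPKM + 1) for features averaging 1 FPKM or more, with moderated variances that follow intensity; tests were two-sided, and a Benjamini-Hochberg adjusted p under 0.05 was the threshold. Groups and replicate numbers came from the sample titles. The members, gene lists and alternatives were chosen with earlier results of these data known. All 35 members are accounted for; those past the threshold, the 4 transcription factors and the most abundant of each role group are given library by library, with others added after their values were seen. From each pathway list up to 4 genes past the threshold, or the most abundant, are named, with Ifnar1, Ifnar2 and Dtx3l added after their values were seen. The test was tried on simulated data. All 35 members had the same coordinates in GENCODE vM21. Python 3.11.15, numpy 2.4.6, pandas 2.3.3 and matplotlib 3.10.9 were used for preparation and figures. Intervals and floors cover counting or library spread only.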

Additional observations from a re-analysis of the deposited data

How the results depend on the processing

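Against 12 members and 31 other pathway genes higher, and none lower, the counts were 3 and 13 with any value above 0 tested, 7 and 8 at 5 FPKM (17 members tested), 21 and 56 with a common sum, and 21 and 55 with library totals. Pseudocount, 0.1 FPKM filter, median of ratios, quantile normalization, variance model, voom and protein-coding genes gave 12 or 13 members. The replicate block gave 6 and 6; replicate numbers did not pair the libraries (correlations of deviations -0.003, -0.1 and -0.067). Leaving out a library gave 0 to 9 members and 0 to 23 pathway genes higher, and 0 to 1 lower (Gbp11, without flox/flox replicate 1). Mettl3 did not pass in any alternative. Log2 differences that changed sign, none past the threshold, were Ifi27 (0.33 with either sum, 0.0061 with median of ratios, 0.24 by quantile, -0.18 to 0.16 with a library left out), Ifi35 (0.14 with either sum), Ifitm3 (0.33 with either sum, 0.57 by quantile), Parp9 (0.26 with either sum, -0.30 to 0.0735 with a library left out), Herc6 (-0.048 by quantile, -0.0433 to 0.24 with a library left out) and Stat2 (-0.11 without flox/flox replicate 1, up to 0.445 without replicate 2). By construction the 5 FPKM filter tested fewer genes (5763) than the main fit (11086). More genes were tested with the 0.1 FPKM filter (17606) and with any value above 0 (25877). The left-out settings used fewer libraries. Otherwise the cause was not tested. Low members rest on few reads, from 16 per library for Mx1.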
